A study of Drosophila melanogaster with 4 samples.

Results

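Arm 3R is the right arm of the third chromosome of Drosophila melanogaster and the longest of the large arms in these data, with 27905053 bp in FlyBase release 5. The members described here are the RPD3-enriched regions inside that arm, chosen by position alone: regions on 3R whose midpoint lay in a stretch of 25.9 Mb that begins at 1 Mb and leaves out the sequence next to the centromere and next to the telomere. Of 7041 enriched regions in replicate 1, 1558 lay in the stretch, and of 7654 in replicate 2, 1759 did. A further list deposited for the whole series, called the series-wide list here, had 4408 of its 19364 regions there. The position rule left out 126 further 3R regions of replicate 1, 134 of replicate 2 and 325 of the series-wide list. At the edges, the first region kept in replicate 1 was 1007906 to 1009238 with a log2 score of 0.57 and the last one left out before it 955798 to 957122 with 0.71. On the telomere side the last kept was 26891716 to 26893174 with 0.80 and the first left out 26904532 to 26905864 with 0.91.

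The material was whole wild-type embryos of the Oregon-R strain, aged 14 to 16 h, crosslinked with formaldehyde. Antibody Q3451 was used to precipitate RPD3 for 2 ChIP libraries, and each was paired by the labels with 1 of 2 input libraries of unprecipitated chromatin. There was no other genotype, age or treatment. Separate embryo collections for the replicates are not stated, and their spread may be technical. Depth is unknown, since the lists hold no read numbers.

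RPD3 is the fly counterpart of mammalian HDAC1 and HDAC2, an enzyme that removes acetyl groups from histone tails. It has no DNA-binding domain of its own and reaches chromatin as the catalytic subunit of larger complexes named for their partners Sin3A, Mi-2 (the NuRD complex) and CoREST, which DNA-binding factors recruit. Histone deacetylases of this class are best known as co-repressors, and they are also found at active genes, where acetyl marks turn over. Arm 3R carries several clusters of developmental regulators, including both homeotic complexes and the Enhancer of split complex. Genes at the positions below were not analysed here, because no annotation of release 5 was used. A whole embryo mixes many cell types, and for every score below, binding in few cells and weak binding in many cells cannot be told apart.

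RPD3 regions covered 13.7% of the stretch in replicate 1 and 16.1% in replicate 2, a mean of 14.9% ± 1.68 (SD, n = 2). In length this was 3.56 Mb and 4.17 Mb. The density was 60.2 regions per Mb in replicate 1 and 67.9 in replicate 2, a mean of 64.0 ± 5.49 (SD, n = 2). The series-wide list was denser, with 170 regions per Mb covering 36.6% of the stretch. Replicate 2 thus had more regions and more covered sequence than replicate 1.

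The authors' score of a region was taken as the log2 ratio of ChIP to input. Its median was 0.79 for replicate 1 and 0.77 for replicate 2, a mean of 0.78 ± 0.013 (SD, n = 2), or 1.72 and 1.70 on a linear scale. Replicate 1 spanned scores of 0.32 to 1.73 and replicate 2 scores of 0.25 to 2.43, and the middle 50% of regions lay between 0.68 and 0.90 in replicate 1 and between 0.65 and 0.90 in replicate 2. A score above 1, which is a doubling, was reached by 210 regions (13.5%) of replicate 1 and 224 (12.7%) of replicate 2. Most regions were therefore modestly enriched, and the replicates had much the same distribution of scores.

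Regions were short. The median width was 1893 bp for replicate 1 and 1925 bp for replicate 2, a mean of 1909 ± 22.6 bp (SD, n = 2), and 54.5% and 53.9% of regions were narrower than 2 kb. At the other end, 60 regions of replicate 1 and 82 of replicate 2 were at least 5 kb wide. The lower bound of 1301 bp was the same in each replicate, and that of the series-wide list was 1001 bp. Wider regions scored higher, with a Spearman correlation of width and score of 0.57 over the 1558 regions of replicate 1 and 0.61 over the 1759 of replicate 2. This is a relation across regions of 1 library, and regions are not independent of one another.

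The profile along the arm was uneven at the scale of 1 Mb. Over 25 full bins, replicate 1 had 34 to 94 regions a bin, with a median of 63, and replicate 2 had 43 to 110, with a median of 71. The densest bin was 5 to 6 Mb, where replicate 1 had 94 regions and replicate 2 had 110 (mean 102 ± 11.3, SD, n = 2). There RPD3 regions covered 21.6% and 26.3% of the sequence. Next came 20 to 21 Mb, with 85 and 101 regions (mean 93 ± 11.3, SD, n = 2), and 1 to 2 Mb, with 79 and 89 (mean 84 ± 7.07, SD, n = 2).

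The sparsest bin was 15 to 16 Mb, where replicate 1 had 34 regions and replicate 2 had 46 (mean 40 ± 8.49, SD, n = 2). It was followed by 21 to 22 Mb, with 41 and 43 regions (mean 42 ± 1.41, SD, n = 2), and by 3 to 4 Mb, with 43 in each replicate. The second densest bin, at 20 to 21 Mb, thus adjoined the second sparsest. Across that boundary replicate 1 went from 85 to 41 regions and replicate 2 from 101 to 43, a difference larger than that between the replicates in either bin. A like step lay between 5 to 6 Mb and 6 to 7 Mb, where the counts were 94 and 110 against 52 and 54.

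**Figure D1:**
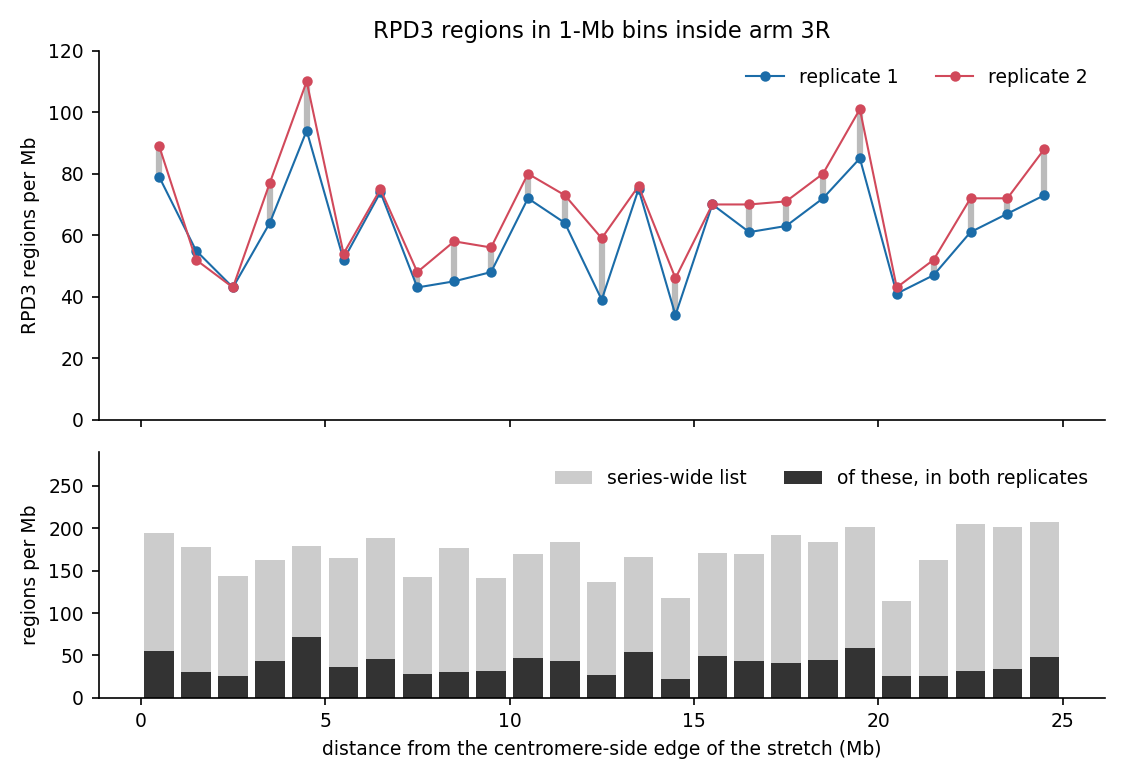
The upper panel plots the number of RPD3 regions in each of 25 bins of 1 Mb, against the distance of the bin's centre from the edge of the stretch on the centromere side, for replicate 1 and replicate 2, with a grey bar joining the pair. The lower panel gives the series-wide list (light bars) and the part of it overlapped by both replicates (dark bars). The 3 densest bins are the same in each replicate, with 94 and 110 regions in the densest, and replicate 1 exceeds replicate 2 in 1 bin.

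The profiles of the replicates were alike. Over the 25 bins, the Spearman and Pearson correlations of their counts were 0.91 and 0.94, and those of their covered shares 0.95 and 0.98. The bins share the libraries and the sequence, so this is a description. Replicate 2 had more regions than replicate 1 in 22 bins, the same number in 2 and fewer in 1, which was 2 to 3 Mb with 55 in replicate 1 and 52 in replicate 2. The largest difference was at 13 to 14 Mb, with 39 against 59 regions. That bin had the lowest share of replicate 2 regions with a partner in replicate 1, 47.5%, where the median bin had 64.4%. A surplus of replicate 2 regions in itself lowers this share. Of the replicate 1 regions there, 74.4% had a partner, against 76.7% in the median bin.

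Scores were also summarised by bin, over listed regions alone, which had passed a threshold that is not known. The median score of a bin varied between 0.73 and 0.85 for replicate 1 and between 0.73 and 0.82 for replicate 2. The Spearman correlation of count and median score over the 25 bins was 0.24 in replicate 1 and 0.13 in replicate 2. The median scores of the replicates themselves followed each other weakly, with a Spearman correlation of 0.24. The densest bin, 5 to 6 Mb, had a median score of 0.74 in replicate 1 and 0.73 in replicate 2, below the medians of the stretch.

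In sections, the middle of the stretch had the fewest regions, by differences in the means that were smaller than the SD between replicates. Divided into 3 sections of equal length, the stretch had 64.9 ± 4.42 regions per Mb on the centromere side, 61.5 ± 5.90 in the middle and 65.7 ± 6.14 on the telomere side (SD, n = 2 for each). Replicate 1 had 61.7, 57.3 and 61.4 regions per Mb in these sections and replicate 2 had 68.0, 65.7 and 70.1. The middle section was thus the lowest in each replicate, while the order of the outer sections differed between the replicates. The share of regions with a score above 1 was 10.7% and 11.8% in the centromere-side section, 13.5% and 13.2% in the middle, and 16.2% and 13.2% on the telomere side, for replicates 1 and 2. The values of the centromere-side section lay below those of the other sections in each replicate, while the middle and telomere-side sections overlapped.

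The series-wide list had a flatter profile, from 114 regions at 21 to 22 Mb to 207 at 25 to 26 Mb, a ratio of 1.82. Over the 25 bins its counts had Spearman and Pearson correlations of 0.72 and 0.73 with the mean of the replicates, so the order was broadly similar, with exceptions chosen here after their values were seen. The bin at 5 to 6 Mb, first in the replicates, had 179 regions and was number 10 in the series-wide list, and the bin at 23 to 24 Mb, with 205 regions, was second there but number 14 by the mean of the replicates. In these bins the share of series-wide regions found in both replicates was at its extremes: 40.2% (72 of 179) at 5 to 6 Mb, and 15.6% (32 of 205) at 23 to 24 Mb. That share depends on the same counts by which the bins were picked, so it is no separate result.

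At a finer scale, RPD3 regions were gathered in short stretches. Among 259 windows of 100 kb the highest counts were 17 in replicate 1 and 20 in replicate 2, with medians of 5 and 6. The variance of these counts was 2.41 and 2.29 times their mean. In the order of their counts, the densest 27.8% of windows held 50% of the regions of replicate 1, and the densest 29.3% held 50% of those of replicate 2. The densest window was 1400001 to 1500000, with 16 regions in replicate 1 and 20 in replicate 2, where they covered 45.6% and 54.8% of the sequence. It was followed by 20000001 to 20100000, with 14 and 19 regions. The window next to the densest, 1300001 to 1400000, had 16 and 15. At the other extreme, 5 windows had 0 regions in each replicate. The series-wide list had 32 regions in those 5 windows, and had 0 windows without a region.

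Spacing was short in the main, with a tail of long gaps. The median gap, from the end of one region to the start of the next, was 5344 bp for replicate 1 and 4970.5 bp for replicate 2, a mean of 5157 ± 264 bp (SD, n = 2). The mean gap was longer, 14340 bp and 12352 bp. In replicate 1, 18.2% of gaps were under 1 kb and 6.36% over 50 kb; in replicate 2 the shares were 18.5% and 4.55%. The distances between midpoints had a coefficient of variation of 1.42 and 1.37. In the series-wide list the median gap was 1906 bp and that coefficient was 0.91.

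**Figure D2:**
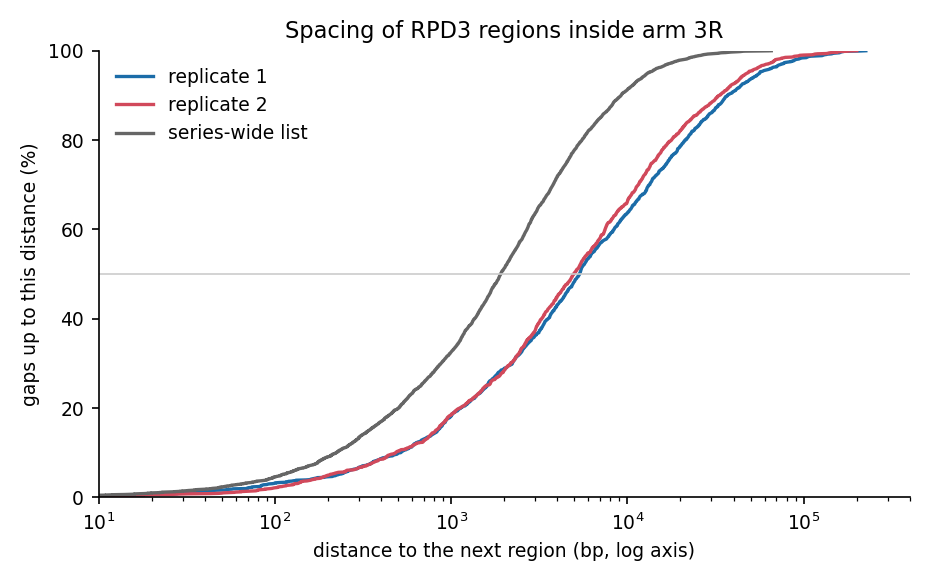
Cumulative share of gaps between neighbouring RPD3 regions, in percent, against the length of the gap in bp on a log axis, for replicate 1, replicate 2 and the series-wide list. The curves of the replicates lie together, crossing 50% at 5344 and 4970.5 bp, and that of the series-wide list lies to the left, crossing at 1906 bp.

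Runs of regions were counted as well, and the calls do not tell a run of separate regions from 1 block listed in parts. With gaps of at most 5 kb, 55 runs of 5 or more regions in replicate 1 held 361 regions (23.2% of the list), and 67 such runs in replicate 2 held 442 (25.1%). The longest run of replicate 2 had 16 regions over 71.5 kb, from 5565881 to 5637349, inside the densest bin, and replicate 1 had 14 regions across the same span. The longest run of replicate 1 had 13 regions over 54.5 kb, from 23062299 to 23116802, where replicate 2 had 11. At a stricter limit of 2 kb the longest run of replicate 1, with 8 regions, went from 12056472 to 12085537. Replicate 2 had 6 regions there that covered 79.4% of it. In the series-wide list 3 regions covered 96.2% of that span. At the opposite end, 464 regions of replicate 1 (29.8%) and 498 of replicate 2 (28.3%) had no other region within 5 kb.

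Regions with a close neighbour differed from lone ones in width and in recurrence. Where the nearest neighbour was under 2 kb away, the median width was 2083 bp for replicate 1 and 2113 bp for replicate 2, and 81.8% and 74.4% of regions had a partner in the other replicate. Where it was 10 kb or more away, the median width was 1577 and 1618 bp, and 58.0% and 45.6% had a partner. Scores moved the same way by a small amount, from 0.80 and 0.78 to 0.75 and 0.74. Neighbours did not have like scores, however: for pairs under 2 kb apart, the Spearman correlation of their scores was 0.039 over 449 pairs in replicate 1 and 0.036 over 499 in replicate 2. The part of width in the recurrence of clustered regions was not tested.

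Stretches without any region were also shared. Taking both replicates together, 54 gaps exceeded 50 kb and 13 exceeded 100 kb. The longest ran from 8540271 to 8740497, 200.2 kb in which neither replicate had a region. The next was 10730497 to 10891338, of 160.8 kb, where the gaps of the replicates were 160.962 kb and 160.845 kb long and so ended at nearly the same places. The third was 4897968 to 5051919, of 154.0 kb, which reached into the start of the densest bin. These were not empty in the series-wide list. It had 10, 15 and 13 regions in them, with median scores of 0.42, 0.54 and 0.50 and no score above 0.66. Per Mb this was 49.9, 93.3 and 84.4 regions, against 170 over the stretch.

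Each replicate also had long gaps that the other broke. The longest of replicate 1 went from 11392536 to 11617880, 225.3 kb, and the second longest of replicate 2 from 3406123 to 3587983, 181.9 kb. The second of these was broken in replicate 1 by, among others, a region from 3522120 to 3524213 with a score of 1.50, the seventh highest of that replicate in the stretch.

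The next question was how far the replicates found the same sites. Of the 1558 regions of replicate 1, 1161 (74.5%) shared 1 bp or more with a region of replicate 2, against 72.7% over the whole series. In the other direction 1131 of 1759 (64.3%) had a partner, against 64.6% over the whole series. The shares on 3R were thus close to the background in each direction. Recurrence rose more steeply with width than with score. By quartile of width it rose from 47.2% to 62.7%, 89.7% and 98.5% in replicate 1, and from 29.1% to 48.9%, 82.2% and 97.0% in replicate 2. By quartile of score it was 68.5%, 64.5%, 74.3% and 90.8% in replicate 1, and 48.2%, 52.0%, 65.4% and 91.6% in replicate 2. Of the 390 regions of replicate 1 in the top width quartile, at least 2670 bp wide, 384 had a partner. The part of width itself in this overlap was not tested.

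Partners overlap by definition, which limits how far apart they can lie. There were 981 pairs in which a region of each replicate overlapped 1 region of the other and no more. They held 84.5% of the partnered regions of replicate 1, and the others were left out of the values that follow. Their midpoints were a median of 159.5 bp apart, and 82.1% were within 500 bp. The median pair overlapped over 81.5% of its joint length. Starts differed by a median of 181 bp and ends by 150 bp, which is small against median widths of 2100 and 2259 bp. The region of replicate 2 was the wider in 616 of the 981 pairs (62.8%). Scores of partners differed by a median of 0.094 in either direction, and 10% of pairs differed by more than 0.24. Their Spearman correlation was 0.68 and their Pearson correlation 0.74 over the 981 pairs.

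**Figure D3:**
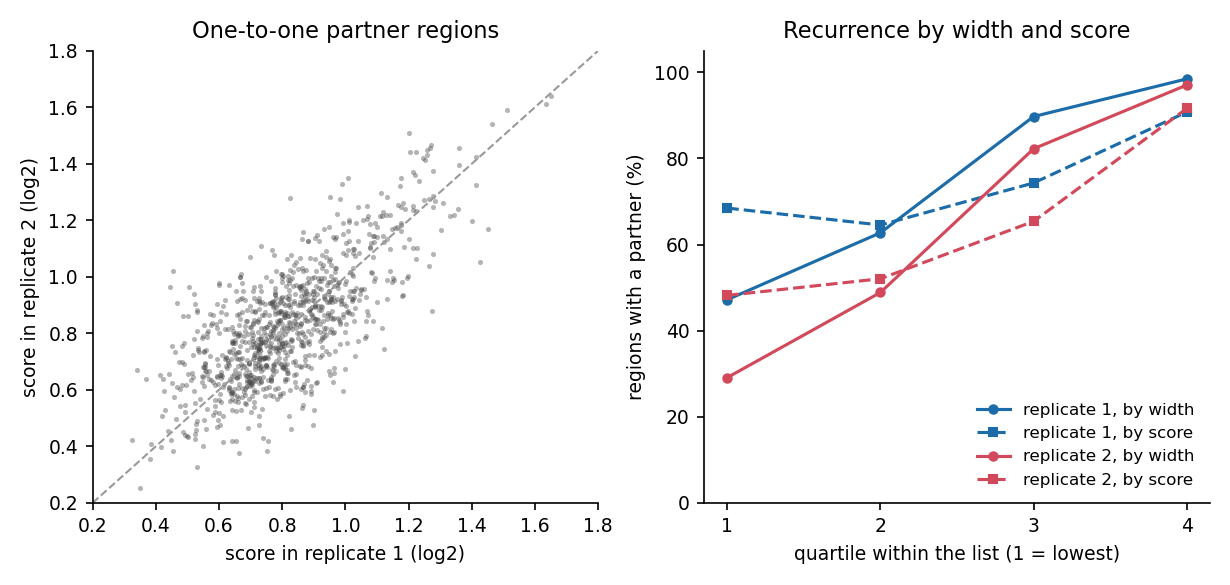
The left panel plots the score of replicate 2 against that of replicate 1 (both log2) for 981 one-to-one partner regions, with the line of equal scores dashed. The right panel plots the share of regions with a partner in the other replicate, in percent, by quartile of width (solid) and of score (dashed) within each list; by width, replicate 1 rises from 47.2% to 98.5% and replicate 2 from 29.1% to 97.0%.

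Some sites were scored differently by the replicates, and the 3 pairs farthest apart in rank all scored higher in replicate 2. From 8877296 to 8879136 replicate 1 had a score of 0.45, in the lowest 1.54% of its list, where replicate 2 scored 1.02, at the 88.9th percentile. From 21713666 to 21715452 the scores were 0.44 and 0.96, and from 11744934 to 11746432 they were 0.51 and 0.97. Each of these regions was under 2.5 kb wide. Strong regions without a partner existed too. The highest score of replicate 2 in the whole stretch, 2.43 or 5.39 on a linear scale, was at 22922411 to 22923974, a region of 1564 bp with no counterpart in replicate 1, whose nearest region was 12753 bp away. The next unpartnered region of replicate 2, from 13752203 to 13753568, scored 1.41. In replicate 1 the highest were 3522120 to 3524213, with 1.50, 18540892 to 18543110, with 1.17, and 21425401 to 21426803, with 1.16. The nearest region of replicate 2 was 63770, 116 and 3586 bp away in that order. At 18540892 to 18543110 the replicates thus listed adjacent regions that only just failed to overlap.

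Of the 4408 series-wide regions, 1021 (23.2%) were found in both replicates, against 23.1% over the whole series. Replicate 1 alone overlapped 349, replicate 2 alone 579, and 2459 (55.8%) were in neither. Those in neither had a median width below 1301 bp, the lower bound of each replicate. Median widths were 3416 bp for the 1021 regions in both and 1275 bp for those in neither, and median series-wide scores 0.67 and 0.49. The former were 23.2% of the regions and 43.8% of their summed length. Most, 862 by replicate 1 and 885 by replicate 2, held a single region of that replicate, and 19 held 3 or more in each. Support rose with the score: 5.57% of series-wide regions with scores up to 0.4 were in both replicates, and 92.6% (199 of 215) of those between 0.8 and 1. Above 1 the share was 87.8% (72 of 82), and 10 regions were in neither. Median widths in these classes were 1378, 4700 and 4247.5 bp in order of score. The part of width in this support was not tested.

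The highest scores of the series-wide list were at sites that neither replicate listed. Of its 12 top-scoring regions in the stretch, 6 were in neither replicate and 6 in both, and the first 6 in order of score were those in neither. The highest was 16093121 to 16095074, with a score of 2.58, or 5.96 on a linear scale, and a width of 1954 bp. Next came 1849240 to 1850256 with 2.40, 20752885 to 20753894 with 2.04, 8302220 to 8303226 with 2.00, 25480234 to 25481318 with 1.53, and 22041359 to 22042382 with 1.49. The last 5 were from 1007 to 1085 bp wide, next to the lower bound of 1001 bp, and narrower than any replicate region in the stretch. The 6 in both replicates were from 3541 to 5841 bp wide, with scores from 1.30 to 1.44. The nearest replicate region was 13050 bp (replicate 1) and 12791 bp (replicate 2) from the top-scoring one, 16093121 to 16095074. These regions were picked out after their values were seen.

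**Figure D4:**
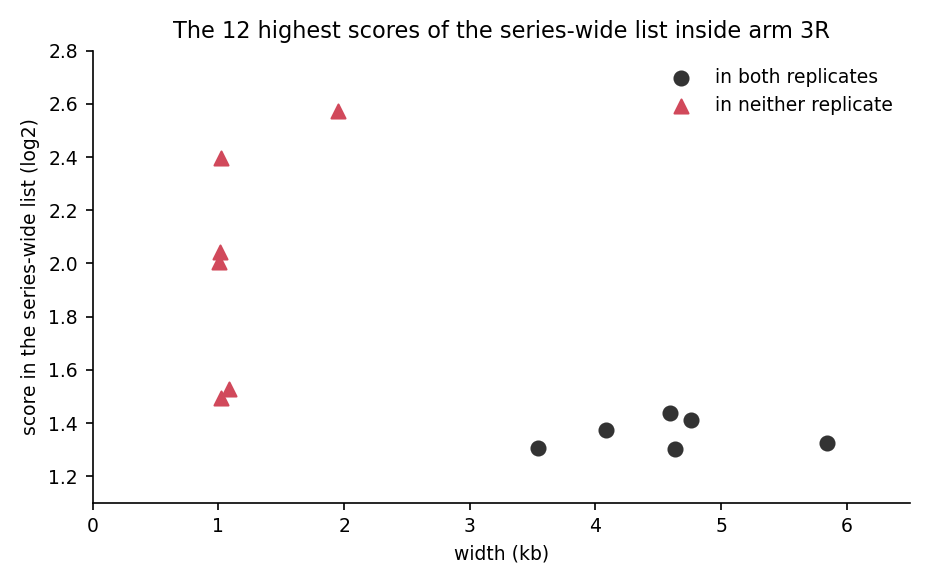
Score (log2) against width (kb) for the 12 highest-scoring regions of the series-wide list inside the stretch, marked by whether both replicates (circles) or neither (triangles) had an overlapping region. The 6 in neither score from 1.49 to 2.58 and are at most 1954 bp wide, and the 6 in both score from 1.30 to 1.44 and are at least 3541 bp wide.

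The strongest sites were therefore ranked by the replicates, using the mean of the percent ranks of a site's best score in each list. The first 10 of the 1021 regions in both scored 1.36 to 1.73 in replicate 1 and 1.33 to 1.64 in replicate 2. The first was 23551409 to 23552897, with 1.65 in replicate 1 and 1.64 in replicate 2 (mean 1.64 ± 0.0080, SD, n = 2), or 3.14 and 3.11 on a linear scale. Its series-wide score was 1.04, where those of the 10 ranged from 1.03 to 1.44. At 1489 bp it was the narrowest of the 10, whose median width was 5949 bp, and its nearest neighbours were 6042 bp and 8775 bp away. The second was 16150981 to 16155570, of 4590 bp, with 1.63 and 1.61 (mean 1.62 ± 0.017, SD, n = 2). The third, 25313209 to 25320558, held 2 regions of each replicate and had best scores of 1.51 and 1.59.

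The fourth, 21864872 to 21869634, scored 1.46 and 1.54, and the region from 8835337 to 8839418, seventh, 1.41 and 1.42. In both of these a single region of each replicate carried the score, and the replicates differed by less than 0.1. The widest difference among the 10 was at 25573165 to 25579005, with 1.73 in replicate 1, its highest score in the stretch, and 1.33 in replicate 2 (mean 1.53 ± 0.28, SD, n = 2). The others were 23083956 to 23092606 (1.39 and 1.62), 24885233 to 24891288 (1.36 and 1.46), 25627124 to 25635942 (1.36 and 1.45) and 24159231 to 24168261 (1.36 and 1.39).

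Of these 10 sites, 8 were in the telomere-side section of the stretch, 1 in the middle and 1 in the centromere-side section. From centromere side to telomere side the sections had 357, 339 and 325 of the 1021 ranked regions, and 27, 34 and 39 of the first 100. The neighbours of the strong sites were of ordinary score by their medians, though single neighbours could be strong. Within 50 kb of each there were from 5 to 14 other regions in either replicate. Their median scores went from 0.63 to 0.87, around that of the stretch. The sites 25573165 to 25579005 and 25627124 to 25635942 were neighbours of each other. The best neighbour of the former scored 1.36 (replicate 1), and that of the latter 1.33 (replicate 2). By contrast, the best neighbours of 16150981 to 16155570 scored 0.96 and 0.95 in replicates 1 and 2. Those of 24159231 to 24168261 scored 0.99 and 0.89. Agreement on the exact order was limited: 9 of the 10 highest-scoring regions of each replicate had a partner in the other, and for 4 of them that partner was also among the 10 highest. For the 100 highest the numbers were 96 and 98 with a partner, and 65.

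The widest regions in both replicates were each listed as 2 or more regions by a replicate, with breaks of very different length between them. The widest of the stretch, 29.5 kb from 8231915 to 8261414, was split in replicate 1 into 6 regions with scores from 0.78 to 0.98, which covered 78.3% of it, and in replicate 2 into 5 with scores from 0.72 to 1.24, which covered 89.2%. The highest parts overlapped: 8250191 to 8252653 with 0.98 in replicate 1, and 8246352 to 8252914 with 1.24 in replicate 2. Replicate 1 had no region between 8240835 and 8245286, where replicate 2 had its lowest part, 8242651 to 8245149 with 0.72.

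The second widest, 21.1 kb from 12064630 to 12085687, was highest at its right end. In replicate 1 its 5 left parts scored from 0.53 to 0.76 and the last, 12076867 to 12085537, scored 1.00. In replicate 2 the last part, 12081737 to 12085599, scored 1.18 and the other 3 from 0.73 to 0.83. Some of its breaks were a few bases long, such as that of replicate 2 between 12081732 and 12081737, so the calls do not tell separate regions from a divided block. The third, 17.6 kb from 20756751 to 20774373, was the strongest of the 5 widest, with best scores of 1.19 and 1.24, and its left end was the highest part in each replicate. These left ends were the replicate regions nearest to the narrow series-wide region 20752885 to 20753894, at distances of 3000 bp for replicate 1 and 2880 bp for replicate 2. The last of the 5 were 19868869 to 19883241, of 14.4 kb, and 24936494 to 24950582, of 14.1 kb. In the former each replicate had 2 parts and a break at nearly the same place, between 19871589 and 19871672 in replicate 1 and between 19871560 and 19871688 in replicate 2.

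**Figure D5:**
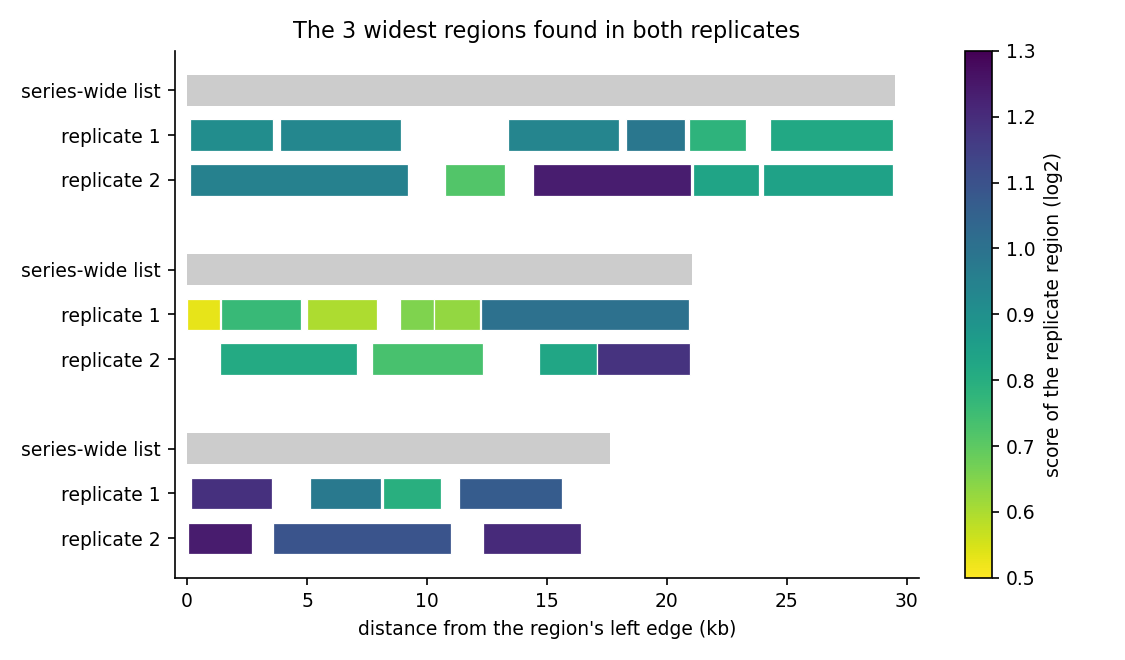
The 3 widest RPD3 regions found in both replicates, from top to bottom, against the distance from their left edge in kb. Grey bars are the region of the series-wide list, and bars below it are the regions of replicate 1 and replicate 2, coloured by score (log2). The top region, 29.5 kb wide, is split into 6 and 5 regions, and in the middle one the part at the right end has the highest score in each replicate.

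Single regions of the replicates reached 10132 bp in replicate 1, from 25864049 to 25874180 with a score of 1.07, and 12471 bp in replicate 2, from 7038241 to 7050711 with 1.04. In the other replicate each of these was split into 2 regions, with best scores of 1.25 and 1.01. The 5 widest regions in both replicates stood at numbers 52 to 127 of the 1021 by mean percent rank, with mean percent ranks of 90.4 to 96.5, so they were high in score but not among the 50 highest.

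Values for the other arms, each taken without 1 Mb at its ends, place 3R among them. On 3R the density was 60.2 and 67.9 regions per Mb in replicates 1 and 2. It lay above that of 2L (46.5 and 50.4), 3L (53.6 and 57.0) and the X (55.4 and 62.9). It lay below that of 2R (73.4 and 77.2). The ratio to 2L, 2R and 3L together was 1.05 in replicate 1 and 1.11 in replicate 2. Its mean was 1.08 ± 0.045 (SD, n = 2), and it was not tested. Median scores on 3R, 0.79 and 0.77, were close to those of 2L, 2R and 3L, each 0.77 in replicate 1 and 0.76 in replicate 2, and lower than on the X, with 0.96 and 0.93. The longest gap was 225.3 kb and 200.2 kb on 3R. It was 480407 and 299660 bp on 2L, 356887 and 353265 bp on 3L, 389457 and 286409 bp on the X, and 199606 and 167736 bp on 2R. None of these differences between arms was tested.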

How the data were processed

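The samples were 2 ChIP and 2 input libraries, grouped and numbered by their titles. No file of values was used for the inputs. Reads were aligned with Bowtie 0.12.7, per the submitters' processing notes. Coordinates are of FlyBase release 5, per the file headers, counted from 1. How regions were called, with which thresholds, and how replicates were joined in the series-wide list: not given in the sources used here. Scores deposited by the authors were read as log2 ratios. This was inferred from the values: in base 2, from 99.1% to 100% of the scores of each list on 3R equalled 1 constant times a ratio of whole numbers (denominator up to 2000, relative tolerance 1e-11), against at most 1.43% in other bases. That the ratio is ChIP to input was inferred too, because the labels name an input as control for each replicate list.

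Regions were placed by midpoint. Partners overlapped by at least 1 bp, and where several did, the best score was used, which can favour wide regions. Gaps ran from end to start of neighbours. Bins were full bins of 1 Mb. The values are descriptions with the SD over 2 replicates. No test was made, and with 2 libraries the values of each replicate are given side by side. Depth is unknown. Genes at the positions were not analysed here. The rule named the 10 strongest and 5 widest regions in both replicates, the 3 densest and sparsest bins, the 3 longest common gaps, the 3 strongest unpartnered regions and the 3 most discordant pairs. Other named items were chosen after their values were seen. The members and rules were chosen with earlier results of these data known. Columns of other samples numbered 0. Overlap shares, coverage, gaps, partner score correlation, bin counts, runs and merging were tested on simulated lists, and other measures were not. Python 3.11.15, numpy 2.4.6, pandas 2.3.3, scipy 1.17.1 and matplotlib 3.10.9 were used.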

Additional observations from a re-analysis of the deposited data

How the results depend on the processing

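Of 60 alternative values for 13 results, 43 stayed within the spread between replicates, within 1.5 times for a count or within 0.1 for a correlation. Where the spread was the limit, leaving out 1 of the 2 replicates could not pass it, so those values were fixed in advance. Scores at or above the list's median left a mean of 739.5 regions per replicate and 433 in both, covering 8.46%, with a median score of 0.92. Fewer regions, less cover and a higher score follow from this cut by construction. The median width was then 2598 bp, the median gap 12738 bp and the density ratio to the other autosomal arms 1.13. The series-wide list gave 4408 regions, 36.6% covered, a median width of 1591 bp, score of 0.51 and gap of 1906 bp, a longest gap of 65498 bp, and bins from 114 to 207 regions. Merging neighbours within 200 bp gave 1934 bp for the median width and 5592 bp for the median gap. The cause of these shifts was not tested. Bins shifted by 0.5 Mb had from 36 to 92 regions. Overlap of at least 50% of the shorter region and midpoints inside the partner gave the same shared share, 66.9%. They also gave the same number of regions in both replicates, 1019, and the same partner score correlation, 0.69, yet were counted apart above. No paired analysis was possible because the groups that share replicate numbers are ChIP and input, and no input values were used. Differences between places within a replicate were read side by side, with no test. Depth is unknown, so the number of regions and the covered share can change with depth alone.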
